A study of Homo sapiens with 6 samples.

Results

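The proteasome is the barrel-shaped protease that degrades ubiquitin-tagged proteins, and the mRNA levels of its subunits were followed here in human cells in which FOXM1 was induced. Genes were members if they were protein-coding rows of the comparison table and if their symbol was PSMA, PSMB, PSMC, PSMD, PSME, PSMF or PSMG followed by a digit, which gave 47 of 13008 genes. The rule itself used names and gene type and no measured value. The comparison table holds only part of the genes measured, so membership also depended on what admitted a gene to it. Of the 47, 46 encode proteasome subunits, activators, an inhibitor or assembly chaperones. The other one, PSMC3IP, is named for its binding to the subunit PSMC3 and encodes a protein of homologous recombination, so it is kept apart below. A further 2 matching rows, PSMD5-AS1 and PSMG3-AS1, were noncoding. The testis-specific alpha subunit PSMA8 and the thymus-specific beta subunit PSMB11 are not among the 47, and both are listed at 0 FPKM (reads per kilobase of gene width, scaled to library depth) in every library.

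All 6 libraries of polyadenylated RNA came from hTERT-RPE1, a retinal pigment epithelial line immortalised with telomerase, made stable for a tetracycline-inducible FLAG-FOXM1c transgene. FOXM1 is a forkhead transcription factor of the cell cycle. The dox group (3 libraries, genotype labelled FOXM1 overexpression) was given doxycycline (1 µg/mL) at intervals of 24 h over 48 h. The no dox group (3 libraries) was labelled untreated and WT in genotype, although it carries the same cell line name. The sources used here do not say whether the line is 1 clone or whether replicates were separate cultures, so p-values measure the spread between these libraries, which may be technical. Doxycycline on cells without the transgene was not analysed here, so effects of the drug and of FOXM1 cannot be told apart.

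Library totals were 41719959, 49882123 and 25148936 reads in dox and 31307141, 32280300 and 15094498 in no dox. Each dox library was thus deeper than the no dox library of the same number, and replicate 3 was the shallowest in both groups. The part of depth in the results was not tested. FOXM1 checked the labels, with 65289, 66830 and 74976 normalised counts in dox against 5009, 4383 and 4292 in no dox. Sets of 3 values are given throughout in the order of replicate 1, 2 and 3. Of 8 epithelial markers 4 had at least 1 FPKM in every library, KRT8 and KRT18 among them, whereas EPCAM was listed at 0 and CDH1 had at most 0.0106. Of 8 markers of pigment epithelium only MITF reached 1 FPKM throughout, and RPE65 had at most 0.22. Blood cells are a rich source of the inducible proteasome, and their markers were nearly absent, with 0 of 8 at 1 FPKM, CD3E listed at 0, and summed levels of 0.0819 to 0.237 FPKM in dox and 0.0457 to 0.215 in no dox. Summed epithelial markers spanned 76.3 to 106 FPKM in dox and 60.2 to 83.2 in no dox, and 8 fibroblast and mesenchyme markers 40.4 to 48.8 and 44.8 to 58.0. Their part in the results below was not tested. In such bulk samples, fewer cells of a type and less RNA per cell cannot be told apart.

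In the complete enzyme, a 20S core of stacked alpha and beta rings holds the protease sites, and a 19S cap binds ubiquitin chains, removes them and unfolds the substrate with a ring of ATPases. The transcription factor NFE2L1 is known to activate subunit genes together when proteasome activity is short. Interferon is known to replace the catalytic subunits PSMB5, PSMB6 and PSMB7 by PSMB8, PSMB9 and PSMB10, which gives the immunoproteasome. Proteasomes also destroy cyclins and securin in mitosis, through the ubiquitin ligase APC/C.

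Proteasome mRNA was nearly level between the groups. Over the 46 genes the median log2 change (dox minus no dox) was -0.0043, against -0.0022 over all 13153 tested genes, and the changes ran from -0.23 for PSMG1 to 0.12 for PSMB5 and PSMG2. Of the 46, 22 had a positive and 24 a negative estimate, and 34 had an absolute change under 0.1. Such small changes were found for 49.9% of the 9420 tested genes within the level range of the 46 genes, from 237 to 19537 mean normalised counts, and for 43.7% of all tested genes. Only the ends of that range were set by the 46 genes. Levels inside it were not matched to theirs, so the shares are not like for like. PSMC3IP lay outside this band at -0.63.

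**Figure D1:**
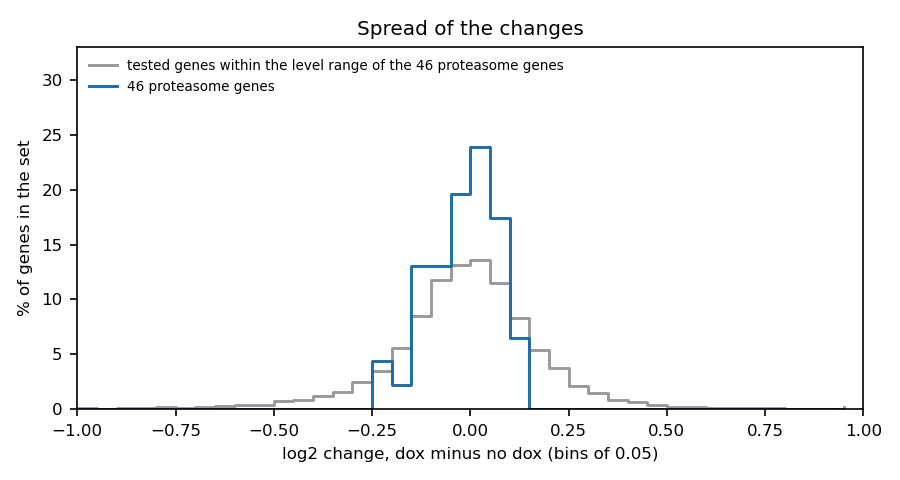
Share of genes (vertical axis, percent of the set) by log2 change in normalised count, dox minus no dox (horizontal axis, bins of 0.05), for the 46 proteasome genes and for 9420 tested genes within their level range. The proteasome genes lie between -0.23 and 0.12, inside the spread of the 9420 genes, which include them.

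By limma over all genes, without regard to the replicate numbers, 0 of 47 members passed at an adjusted p under 0.05, where 0.54% of tested genes did. At an unadjusted p under 0.05 there were 2, PSMC3IP and PSMG1, where 13.0% of tested genes passed. On recovered reads edgeR's quasi-likelihood test called 0 members (0.515% of all genes) and DESeq2 called 1, PSMC3IP (adjusted p = 0.0206, 4.01% of all genes). The authors' deposited table marked 0 of the 47 up or down (1.56% of its genes were marked) and had 0 of them at an adjusted p under 0.05 (2.78% of its genes). Its smallest adjusted p among members was 0.0657, again for PSMC3IP.

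Libraries that share a replicate number also shared deviations from their groups. With that number as a block in limma, 4 members fell and 0 rose, where 22.5% of tested genes passed, 12.4% lower and 10.2% higher. Those that fell were PSMC3IP, the assembly chaperone PSMG1, the 19S scaffold PSMD2 and the 19S ATPase PSMC2. The share of members called thus lay below that over all genes, and below the 26.0% called within the level range of the 46. With the block edgeR called 3 of the 4, all but PSMC2, where 23.4% of all genes passed, and DESeq2 called PSMC3IP and PSMD2, where 13.4% did. Groups did not overlap for 4 of the 47, PSMC3IP, PSMG1, PSMC2 and PSMB4, where 19.1% of tested genes had groups that do not overlap. Of the 46 proteasome genes 8 were higher in all 3 pairs and 14 lower in all 3, where 26.5% and 28.5% of tested genes were.

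Of the 47, 19 overlap another gene of the table, 5 of them with a gene on the same strand (PSMA1, PSMB9, PSMD2, PSMD9 and PSMG2), and their reads are uncertain. Pseudogenes of the members had at most 0.131 FPKM (PSME2P4), and how reads shared with them were counted is not stated.

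A missed threshold does not show that a gene did not differ, so the intervals of the changes are given as well. With the block, the 95% interval of the log2 change lay inside a 1.2-fold change in either direction for 41 of the 46 genes. This held for 59.6% of genes within their level range and for 44.2% of all tested genes. Without the block it held for 24 of 46, against 19.7% and 14.2%. Genes within the level range were not matched in level to the 46, so these shares do not show that proteasome genes were unusually stable. The 5 genes whose blocked interval reached further were PSMG1 and the weakly expressed PSMA2, PSMB9, PSMB10 and PSMD9.

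**Figure D2:**
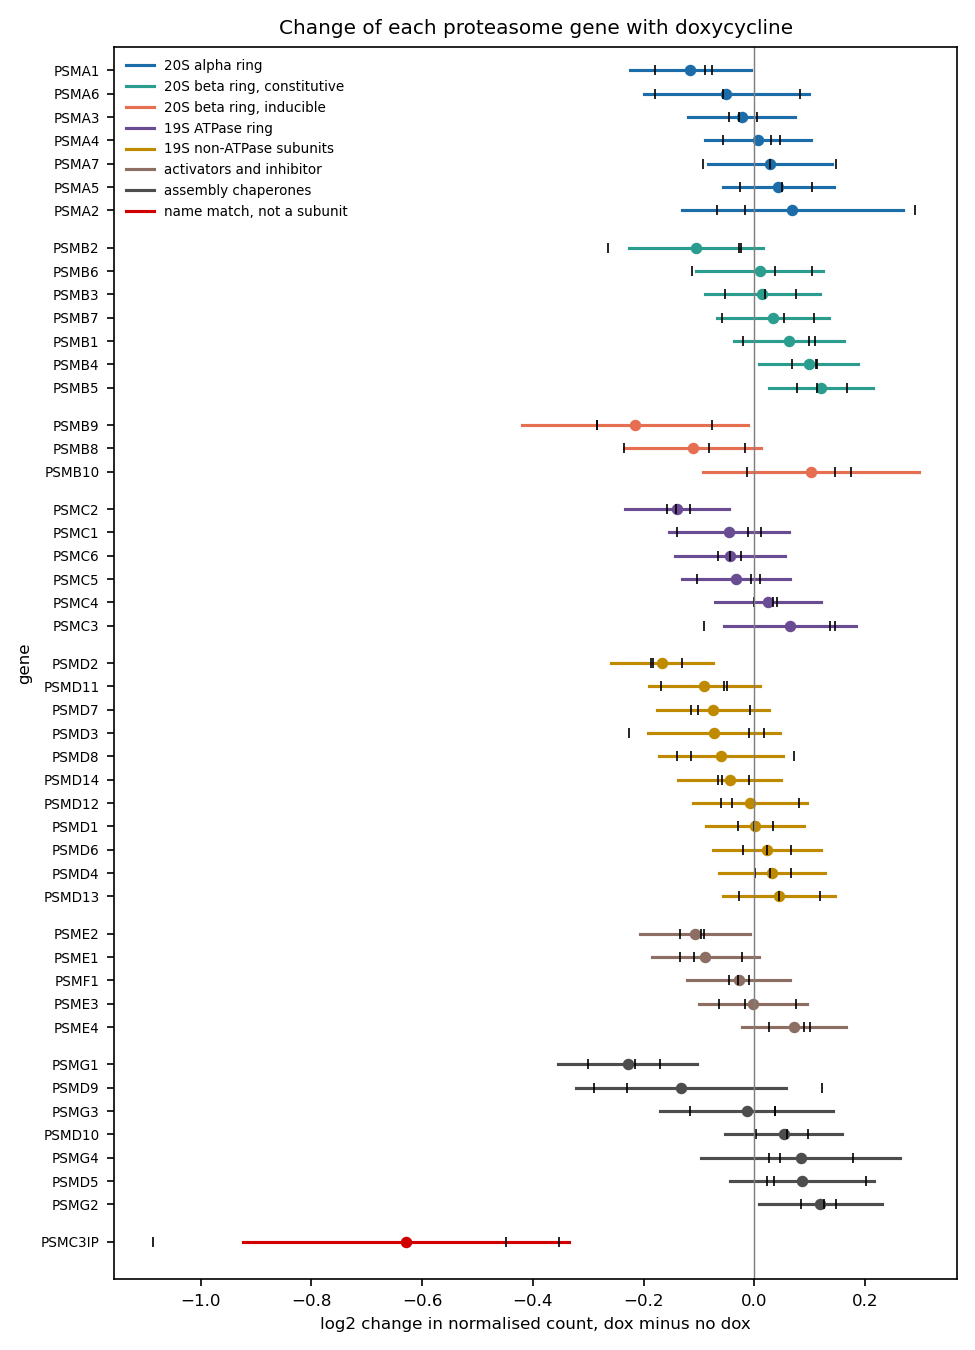
Log2 change in normalised count (horizontal axis, dox minus no dox) of each of the 47 genes (rows), coloured by role. Points are the estimates, bars their 95% intervals with the replicate block, and ticks the 3 replicate pairs. Bars of PSMC3IP, PSMG1, PSMD2 and PSMC2 lie below 0, and only these 4 passed the adjusted test with the block. Bars of PSMA1, PSMB9 and PSME2 also lie below 0, and those of PSMB4, PSMB5 and PSMG2 above 0.

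PSMC3IP, which acts with recombinases in the exchange of DNA strands, fell most. Its normalised counts were 200.8, 256.3 and 239.9 in dox and 427.8, 350 and 306.7 in no dox, or 232.3 ± 28.5 against 361.5 ± 61.4 (SD, n = 3 each). All dox libraries lay below all no dox libraries, and pair 1 differed most. The log2 change was -0.63, with an SE of 0.16 and a limma adjusted p = 0.128 without the block, and an SE of 0.13 and a limma adjusted p = 0.00835 with it. Without both libraries of replicate 1 the change was -0.40 (limma adjusted p = 0.00274 with the block). Here and below, fits without a replicate number hold few libraries, so their p-values rest mostly on variance borrowed from other genes. From log2 of FPKM plus 0.1 the blocked call of PSMC3IP was lost (-0.54, limma adjusted p = 0.0521). It overlaps the opposite-strand gene MLX by 925 bases of hg19, which changed by -0.06 (adjusted p = 0.574 with the block). This gene was singled out after its values were seen, since it belongs to no proteasome class.

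PSMG1 (PAC1) is a chaperone that pairs with PSMG2 to start the alpha ring, and it was the proteasome gene with the largest fall. It had 768, 844.2 and 794.6 normalised counts in dox and 945.8, 980.5 and 894.3 in no dox. Every dox library was below every no dox library. The log2 change was -0.23 (SE 0.06 and limma adjusted p = 0.0169 with the block, 0.289 without it). No other gene of the table overlaps it. Without both libraries of replicate 2 the blocked call was lost (adjusted p = 0.105), as it was with DESeq2 and the block (0.0961).

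PSMD2 (RPN1) is the large 19S scaffold that docks ubiquitin receptors and shuttle factors, and it had the highest normalised counts of all members. They were 20425, 17420 and 17364 in dox and 23184, 19830 and 18999 in no dox. The groups overlap, since dox replicate 1 exceeds no dox replicates 2 and 3, but each pair was lower in dox by a similar amount (-0.18, -0.19 and -0.13 on the log2 scale). The mean change was -0.17 (SE 0.04 and limma adjusted p = 0.0179 with the block, 0.629 without it). Leaving out no dox replicate 1 alone gave -0.08 and leaving out dox replicate 1 alone -0.24. It passed with the block without replicate 1 (adjusted p = 0.0026) and not without replicate 2 (0.158) or 3 (0.0798), nor from FPKM values (0.0552). PSMD2 overlaps EIF2B5, on the same strand, by 10346 bases, so reads of the 2 genes may be mixed; EIF2B5 changed by 0.06 (limma adjusted p = 0.496 with the block).

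PSMC2 (RPT1) is an ATPase of the unfolding ring. Its normalised counts were 2679, 2504 and 2437 in dox and 2954, 2716 and 2720 in no dox, with no overlap of the groups. PSMC2 overlaps the opposite-strand gene DNAJC2 by 620 bases, and DNAJC2 changed by 0.025 (limma adjusted p = 0.801 with the block). The change of PSMC2 was -0.14 (SE 0.04 and limma adjusted p = 0.0403 with the block, 0.51 without it). Its blocked call was lost with TMM or quantile scaling (adjusted p = 0.0524 and 0.0745), with edgeR and DESeq2 (0.05 and 0.209), without replicate 2 (0.183) or 3 (0.197), and from FPKM values (0.0933).

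**Figure D3:**
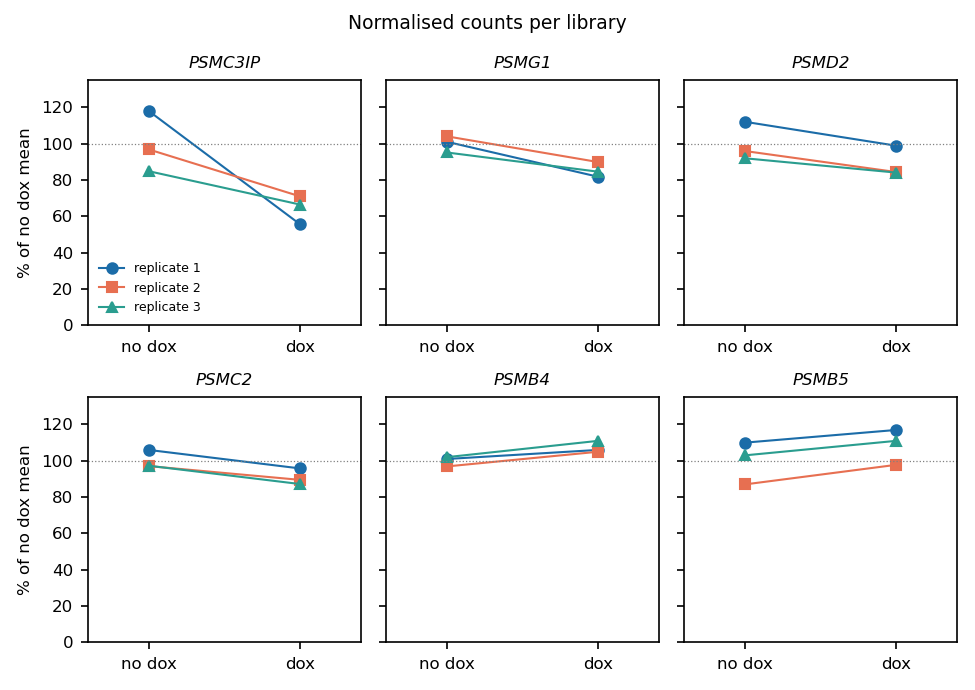
Normalised counts of 6 genes in each library, as percent of the no dox mean (vertical axis), by group (horizontal axis). Lines join libraries of the same replicate number and the dotted line marks 100. PSMC3IP drops to between 55.5 and 70.9, whereas PSMG1 stays at 81.7 or more and the other 4 genes at 84.0 or more.

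The promoters of these 4 genes are shown because these members fell with the block. Each is the stretch of 250 bases upstream of the more upstream RefSeq start on GRCh38.p14, written 5′ to 3′ on the gene's strand. Capitals mark matches, on either strand, to 4 motifs, which do not overlap each other in these stretches. TGACNNNGC is the core of the antioxidant response element that NFE2L1 and NFE2L2 bind, TTTGAA is the cell cycle element CHR, CCAAT is the box bound by NF-Y, and TAAACA is a forkhead core.
PSMC3IP, chr17:42577832-42578081, minus strand: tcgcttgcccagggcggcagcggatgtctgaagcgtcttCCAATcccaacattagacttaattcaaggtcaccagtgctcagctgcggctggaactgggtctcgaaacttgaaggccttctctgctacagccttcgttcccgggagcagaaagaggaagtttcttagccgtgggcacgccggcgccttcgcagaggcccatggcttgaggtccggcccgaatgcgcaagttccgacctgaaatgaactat
PSMG1, chr21:39183452-39183701, minus strand: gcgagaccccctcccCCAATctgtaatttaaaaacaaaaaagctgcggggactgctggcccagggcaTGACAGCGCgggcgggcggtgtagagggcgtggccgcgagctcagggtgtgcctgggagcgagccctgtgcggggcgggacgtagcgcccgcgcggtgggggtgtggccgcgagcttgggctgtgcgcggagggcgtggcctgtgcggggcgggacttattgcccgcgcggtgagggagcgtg
PSMD2, chr3:184298991-184299240, plus strand: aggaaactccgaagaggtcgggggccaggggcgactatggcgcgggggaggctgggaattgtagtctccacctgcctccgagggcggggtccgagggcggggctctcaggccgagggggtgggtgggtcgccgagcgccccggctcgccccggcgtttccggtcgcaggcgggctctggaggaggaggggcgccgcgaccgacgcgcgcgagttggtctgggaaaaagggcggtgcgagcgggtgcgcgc
PSMC2, chr7:103347393-103347642, plus strand: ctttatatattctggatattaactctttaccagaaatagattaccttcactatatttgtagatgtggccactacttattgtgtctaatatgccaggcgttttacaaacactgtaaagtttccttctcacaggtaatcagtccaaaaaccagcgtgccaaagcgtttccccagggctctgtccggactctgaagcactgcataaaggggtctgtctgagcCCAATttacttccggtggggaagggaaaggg
PSMG1 held both a TGACNNNGC match, 183 to 175 bases upstream of the start, and a CCAAT match, 235 to 231 bases upstream. The CCAAT match lay 211 to 207 bases upstream in PSMC3IP and 31 to 27 in PSMC2, and in the PSMD2 window shown none of the motifs was found. RefSeq gives PSMC3IP and PSMD2 a second, more downstream start, whose windows are not shown. That of PSMD2 held TTTGAA on the minus strand 126 to 121 bases upstream, and that of PSMC3IP held CCAAT 54 to 50 bases upstream.

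RefSeq promoters were found for 41 of the 47 members, with 51 starts in all, and not for PSMA7, PSMB1, PSMB6, PSMB7, PSMD4 and PSMG3. TGACNNNGC was present in 25.5% of the 51 member windows and in 10.9% of all 35116 windows of the same length. The 13 genes with it were PSMA4, PSMB3, PSMB9, PSMC5, PSMD3, PSMD5, PSMD9, PSMD12, PSME1, PSME2, PSME4, PSMG1 and PSMG2. CCAAT was present in 39.2% against 32.0% of all windows. The 2 motifs of cell cycle and forkhead factors were no more frequent in members, with TTTGAA in 11.8% against 13.3% and TAAACA in 7.84% against 11.0%. A match is a string of letters, not a bound site.

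The alpha ring gates the entrance to the core. None of its 7 measured genes passed by limma, with or without the block, the median change was 0.01, and the estimates ran from -0.12 for PSMA1 to 0.07 for PSMA2. PSMA7, the alpha subunit with the highest FPKM, had 5836, 5767 and 5481 normalised counts in dox and 6221, 5204 and 5375 in no dox. PSMA2, the lowest, had 331.1, 378.4 and 350.1 in dox and 334.8, 309.2 and 366.9 in no dox. The groups overlap in both genes. PSMA3 (-0.02), PSMA4 (0.01), PSMA5 (0.04) and PSMA6 (-0.05) were closer to 0 than PSMA1. PSMA1 was lower in all 3 pairs, did not pass (limma adjusted p = 0.123 with the block) and overlaps the same-strand gene COPB1 by 6245 bases, so its reads are uncertain.

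In the constitutive beta ring, 6 of 7 estimates were positive and 0 passed. PSMB5, the chymotrypsin-like protease subunit and target of clinical inhibitors, had an estimate of 0.12, as had the chaperone PSMG2, and these were the highest of the members. Without the block PSMG2 led with edgeR and DESeq2, and PSMB5 with limma. Its normalised counts were 4126, 3462 and 3929 in dox and 3910, 3081 and 3629 in no dox. The groups overlap, and each pair was higher in dox (0.08, 0.17 and 0.11), with a mean of 0.12 (limma adjusted p = 0.746 without and 0.0673 with the block). Leaving out 1 library moved it to 0.02 (without no dox replicate 2), 0.07 (dox 1), 0.19 (dox 2) or 0.20 (no dox 1). PSMB4, a structural subunit, had 4887, 4857 and 5123 in dox against 4658, 4487 and 4745 in no dox. Its groups did not overlap, and its change of 0.10 had a limma adjusted p of 0.109 with the block. Both genes passed with the block when values were quantile-scaled (0.0332 for PSMB5 and 0.0348 for PSMB4) or when replicate 1 was left out (0.0116 and 0.0358).

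The other constitutive beta genes differed between pairs. PSMB6, the caspase-like subunit, had 2311, 2403 and 2520 normalised counts in dox and 2499, 2342 and 2342 in no dox. PSMB7, the trypsin-like subunit, had 4456, 4778 and 4890 against 4639, 4602 and 4542. The structural subunit PSMB1, highest in FPKM of all members, had 3870, 4163 and 4406 against 3926, 3886 and 4082. In each of these 3 genes dox replicate 1 lay below its no dox partner and the other pairs were higher in dox. PSMB3 was at 0.01 and PSMB2 at -0.11, where pair 1 alone differed by -0.27 and the other pairs by -0.02 and -0.03.

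Of the inducible catalytic subunits none passed. PSMB8 (LMP7), the counterpart of PSMB5, had 1480, 1300 and 1306 normalised counts in dox and 1567, 1314 and 1538 in no dox. PSMB9 (LMP2), the counterpart of PSMB6, had 197.1, 240.6 and 218.2 against 240.2, 293.3 and 230. Both were lower in each pair with groups that overlap, by -0.11 and -0.21 on average (limma adjusted p = 0.183 and 0.122 with the block). PSMB10 (MECL-1), the counterpart of PSMB7, had 253.1, 251 and 291 against 228.8, 253.3 and 257.7, a change of 0.10 (0.441 with the block). PSMB8 and PSMB9 lie side by side in the MHC region of chromosome 6, overlap by 568 bases on opposite strands, and PSMB9 also overlaps TAP1 by 8770 bases, so their reads may be mixed.

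Set against its constitutive counterpart within each library, PSMB8 stood at a lower percentage in dox. Its FPKM was 34.5%, 36.1% and 32.0% of that of PSMB5 in dox, and 38.6%, 41.0% and 40.8% in no dox. Every dox library lay below every no dox library. The mean was 34.2% ± 2.1 against 40.1% ± 1.4 (SD, n = 3 each), a difference of -0.23 in the log2 ratio of normalised counts. Both genes contributed, PSMB8 with -0.11 and PSMB5 with 0.12 (limma adjusted p = 0.183 and 0.0673 with the block). PSMB9 was at 3.86%, 4.5% and 3.89% of PSMB6 in dox and at 4.32%, 5.62% and 4.39% in no dox, lower in each pair with groups that overlap. PSMB10 was at 6.79%, 6.28% and 7.13% of PSMB7 in dox and 5.90%, 6.58% and 6.81% in no dox, with no common direction. Among single tested genes 19.1% had groups that do not overlap, and the share among ratios of genes was not computed. These ratios are descriptions without a test, and their absolute size depends on the gene widths. Per kilobase of principal transcript PSMB8 stood at 40.9% ± 2.5 of PSMB5 in dox and 48.0% ± 1.6 in no dox.

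**Figure D4:**
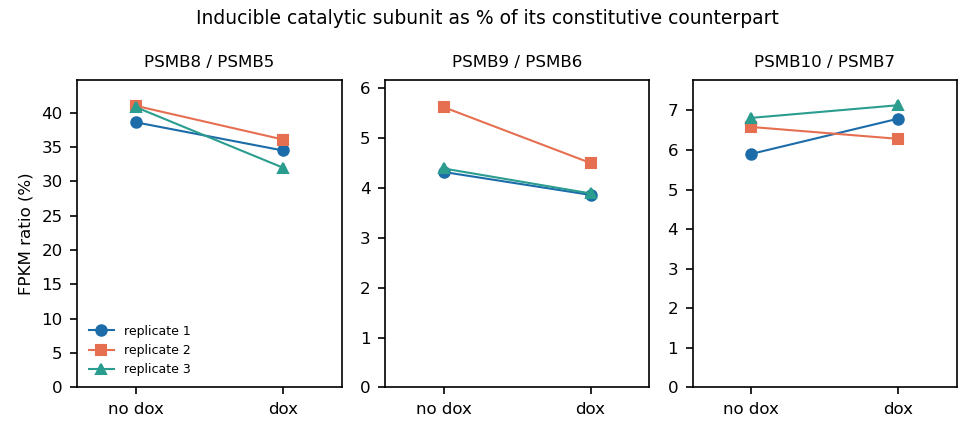
FPKM of each inducible catalytic subunit as percent of its constitutive counterpart (vertical axis, from 0, with its own scale in each panel) in no dox and dox libraries. Lines join libraries of the same replicate number. The PSMB8 to PSMB5 ratio is 32.0% to 36.1% in dox and 38.6% to 41.0% in no dox.

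Among the ATPases of the 19S base, PSMC2 alone passed with the block, and the median over the 6 genes was -0.04. PSMC3, highest in FPKM, had 4604, 4635 and 4636 normalised counts in dox and 4905, 4188 and 4215 in no dox. PSMC6, the lowest, had 1853, 1865 and 2050 against 1938, 1897 and 2113. PSMC6 was lower in each pair by at most 0.07, and PSMC3 was lower in pair 1 only. PSMC1 (-0.05), PSMC4 (0.02) and PSMC5 (-0.03) were close to 0. When replicate 1 was left out, PSMC3 passed with the block, with a positive change.

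The 11 other 19S subunits, which include scaffolds, a ubiquitin receptor, a deubiquitinase and other lid subunits, had a median change of -0.04, and PSMD2 alone passed with the block. PSMD4, a ubiquitin receptor, changed by 0.03 and PSMD14, the deubiquitinase that cuts chains from the substrate, by -0.04. PSMD1, the second large scaffold beside PSMD2, had 6003, 5547 and 5667 normalised counts in dox and 6124, 5548 and 5540 in no dox, with a limma adjusted p of 0.987 with the block. PSMD6, the lowest in FPKM, had 2690, 2676 and 2486 against 2646, 2556 and 2523. The lid subunits PSMD3 (-0.07), PSMD7 (-0.07), PSMD8 (-0.06), PSMD11 (-0.09), PSMD12 (-0.01) and PSMD13 (0.04) did not pass.

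Alternative caps and the inhibitor did not pass either. PSME1 and PSME2, which form the interferon-inducible PA28 cap, were lower in each pair, by -0.09 and -0.11 on average (limma adjusted p = 0.174 and 0.115 with the block), and PSME1 passed when replicate 1 was left out. PSME1 had 3450, 3632 and 3947 normalised counts in dox and 3505, 3914 and 4333 in no dox. PSME2 had 2019, 1678 and 1728 against 2217, 1787 and 1847. The groups overlap in both genes. PSME4, the nuclear activator PA200, changed by 0.07, the PI31 gene PSMF1 by -0.03, and the nuclear PA28 gamma gene PSME3 had 5469, 4286 and 4533 in dox and 5715, 4335 and 4304 in no dox.

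Assembly chaperones, which leave the particle once it is built, had estimates in both directions. PSMG1 fell with the block, while its partner PSMG2 had an estimate of 0.12 (limma adjusted p = 0.116 with the block) and was higher in each pair. PSMG2 had 1050, 1336 and 1347 normalised counts in dox and 991, 1206 and 1234 in no dox. It overlaps CEP76 on the opposite strand by 40945 bases and AP005482.1 on the same strand by 4734, so reads of these genes may be mixed. CEP76 changed by 0.292 (limma adjusted p = 0.03975 with the block) and AP005482.1 by 0.286 (0.5165). The second chaperone pair, PSMG3 (-0.01) and PSMG4 (0.08), did not pass. PSMG4, at 322.2, 323.1 and 301.2 in dox against 312.1, 317.4 and 265.9 in no dox, lies across from SLC22A23, which changed by 1.42 (limma adjusted p = 4.08e-05 with the block and 0.0687 without it). The 19S chaperones PSMD5 (0.09), PSMD9 (-0.13) and PSMD10 (0.05) did not pass, and PSMD10, highest of the chaperones in FPKM, had 1776, 1514 and 1740 against 1661, 1511 and 1669.

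Each gene's variance on the log2 scale was split between replicate number, which has 2 degrees of freedom, and group, which has 1, so the replicate share is the larger by construction in many genes. It was larger in 40 of the 46 genes and in 71.6% of all tested genes. The median shares of the 46 were 69.9% for the replicate and 14.8% for the group. Over all tested genes the medians were 61.5% and 17.5%. The replicate with the highest value was the same in both groups for 32 of 46 genes, and for 65.2% of all tested genes. PSMC4 shows this most plainly, with 2655, 2276 and 2205 normalised counts in dox and 2581, 2225 and 2206 in no dox. PSME4 (4106, 3403 and 2980 against 3859, 3343 and 2777) and PSME3 likewise had their highest value in replicate 1 of both groups. Over the 46 genes the mean log2 difference was -0.07 in pair 1, 0.006 in pair 2 and 0.01 in pair 3.

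Levels per length spanned a wide range. Without doxycycline FPKM ran from 0.722 ± 0.0899 for PSMG4 to 47.1 ± 0.793 for PSMB1 (SD, n = 3 each), a ratio of 65.2. Among the 31 constitutive subunits of the 20S core and the 19S cap the lowest was PSMA2, and the ratio was 52.9. The constitutive beta ring was the most even class, from 20 for PSMB4 to 47.1, and the alpha ring among the least even, from 0.89 for PSMA2 to 38.5 for PSMA7. Inducible catalytic genes stood at 1.46 (PSMB9), 2.02 (PSMB10) and 9.14 (PSMB8). Gene widths in the deposited table were 1.0 to 21.4 times the length of the principal GENCODE 29 transcript, so FPKM differences between genes partly follow the widths. Per kilobase of that transcript, available for 45 of 46 genes, CPM (reads scaled to the library total) spanned 6.91 for PSMB10 to 204 for PSMD2, a ratio of 29.5 (26.4 among the constitutive subunits with a length), and PSMA2 stayed lowest of its ring at 7.73.

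**Figure D5:**
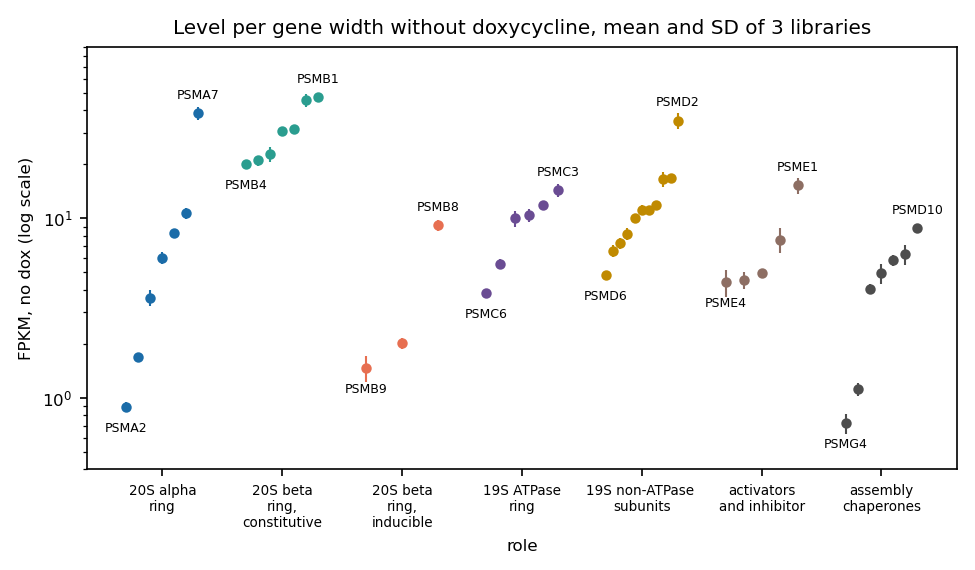
FPKM without doxycycline (vertical axis, log scale) of the 46 proteasome genes by role (horizontal axis). Points are means and bars SDs of 3 libraries, and the lowest and highest gene of each role are named. Constitutive beta ring genes lie between 20 and 47.1, inducible ones between 1.46 and 9.14, and alpha ring genes between 0.89 and 38.5.

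With the block, other genes of the pathway were called about as often as all tested genes, and in both directions. Of 53 genes listed as partners, regulators, ubiquitin genes, shuttle factors, the VCP segregase and antigen presentation, 0 passed without the block, and 8 rose and 5 fell with it, where 22.5% of all tested genes passed. The median change was 0.01. NFE2L1, the activator of proteasome genes, fell with the block, from 10516, 10188 and 9938 normalised counts in no dox to 9537, 8916 and 8760 in dox (-0.17, limma adjusted p = 0.0128). Every dox library lay below every no dox library. Its heterodimer partner MAFG rose with the block (0.21, adjusted p = 0.0104), and NFE2L2 (-0.04) did not pass.

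Of 12 partners without a PSM symbol, the 19S chaperone PAAF1 rose with the block (0.23, limma adjusted p = 0.0372), and 11 did not pass, among them the core maturation factor POMP (0.02), the ubiquitin receptor ADRM1 (-0.01) and the deubiquitinases USP14 (-0.09) and UCHL5 (-0.06). None of the 6 ubiquitin and E1 genes passed, with UBB at 0.01. Among shuttle factors RAD23B fell (-0.16, adjusted p = 0.0169) and the autophagy receptor SQSTM1 rose (0.17, adjusted p = 0.0222) with the block. Of the VCP group, the adaptors FAF1 fell (-0.23, adjusted p = 0.00941) and UBXN1 rose (0.21, adjusted p = 0.00700), and VCP itself was at -0.01.

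Of 12 genes of antigen presentation and interferon control, 4 rose and 2 fell with the block, where 22.5% of all tested genes passed in either direction. Among those that rose were HLA-B, which presents peptides (0.16, limma adjusted p = 0.0300) and the interferon regulator IRF1 (0.20, adjusted p = 0.0465). TAP2, a subunit of the peptide transporter, fell from 661.3, 572.4 and 478.6 normalised counts in no dox to 574.5, 444.5 and 359.6 in dox (-0.33, adjusted p = 0.00944), and the trimming protease ERAP1 fell (-0.18, adjusted p = 0.0162). TAP1 (-0.18), next to PSMB9, did not pass (0.0771). HLA-B has near-identical relatives, so its reads are uncertain.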

How the data were processed

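Polyadenylated RNA of 6 libraries, 3 dox and 3 no dox, was grouped and numbered by the sample titles. Bcl2fastq, Trimmomatic, TopHat, edgeR and hg19 are named, without versions, roles or order, per the submitters' processing notes. The sources used here do not state the strand setting of the counting, nor how multi-mapping or overlapping reads were handled. The authors deposited normalised counts (13161 genes), a depth-equalised signal, and the sources used here do not state the formula. The authors also deposited FPKM values (57773 genes) and a comparison table (13008 genes) with CPM, log2 fold change, a likelihood ratio score, p-values and adjusted p-values, per the file headers. Dividing each CPM value by that of a single read left whole numbers (100% of values within 0.01 in each library), which gave reads and library totals.

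A gene was tested where 3 or more libraries had 10 or more normalised counts (13153 genes, all 47 members among them). The two-sided test was limma-trend on log2 of the normalised count plus 1, with Benjamini-Hochberg adjustment over all genes and a threshold of 0.05. This scale understates the change of low genes. The replicate number as a block was an alternative. Across genes, deviations from the group mean had correlations of 0.745, 0.726 and 0.768 between libraries of equal number, so the numbers were taken to pair the libraries. What equal numbers share is not stated in the labels. Chi-square per degree of freedom between libraries was at least 16. Other alternatives were pseudocounts, filters, log2 of FPKM plus 0.1, scalings, leaving out libraries, and edgeR and DESeq2 on recovered reads. On the FPKM scale the median log2 change over all tested genes was 0.0232, against -0.0022 from normalised counts. The added 0.1 also damps changes of genes with low FPKM. Blocked fits combined with other settings were added after the data were seen. Those without a replicate number left few residual degrees of freedom.

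Per-library values are given for genes called without the block, the largest called changes and the highest and lowest mean FPKM of each class, and the catalytic subunits. In the pathway list the 3 smallest p in each direction were to be named, some genes of the lists are not reported here, and further genes there were chosen after their values were seen, as were PSMC3IP, PSMC4, PSMD1, PSME3, PSME4 and PSMG2. Members and lists were chosen with earlier results of these data known. The fits were tested on simulated data. Transcript lengths came by gene ID from GENCODE 29. Fits used DESeq2 1.42.0, edgeR 4.0.16 and limma 3.58.1 under R 4.3.3, and tables Python 3.11.15.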

Additional observations from a re-analysis of the deposited data

How the results depend on the processing

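The labels' replicate numbers were used as a replicate block in the limma fit, which raised the calls from 71 to 2965 over all genes, from 0 to 4 of 47 members and from 0 to 13 of 53 pathway genes. With the block, edgeR's quasi-likelihood test called 3047 genes, 3 members and 14 pathway genes, and DESeq2 called 1745, 2 and 8. Settings added to the block after the data were seen gave 2081, 1 and 8 with FPKM values, 2978, 3 and 14 with TMM scaling, and 2918, 5 and 13 with quantile scaling. Leaving out both libraries of 1 replicate number with the block gave 3835, 8 and 13 without replicate 1. It gave 1414, 1 and 3 without replicate 2, and 1779, 2 and 3 without replicate 3. More genes passed without replicate 1 than in the full blocked fit (3835 against 2965), although fewer libraries were used. P-values of these reduced fits rest mostly on variance borrowed from other genes. DESeq2 without the block called 522 genes and 1 member, and FPKM values without it 31 genes. Leaving out single libraries without the block gave 3 to 21 genes and 0 members, with 1 to 2 members at an unadjusted p under 0.05.

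The median change over the 47 members, -0.007, stayed within the spread of the pairs (SD 0.042) except without no dox replicate 1, where it was 0.041. Where 1 library was left out without the block it ran from -0.032 to 0.041. Where both libraries of 1 replicate number were left out with the block it ran from -0.038 to 0.016. Sign changes were followed by value for the genes named by the rule. PSMB6 turned to -0.023, -0.006 and -0.006 without dox replicate 3 or no dox replicate 2 or 3, PSMA7 to -0.023 without no dox replicate 2 (range -0.023 to 0.106), and PSMC6 to 0.003 without no dox replicate 3 (range -0.091 to 0.003). With the block and without replicate 2, PSMA7 was at -0.032, PSMA2 at -0.042 and PSMB6 at -0.004, and without replicate 3 PSMB6 was at -0.038 and PSMB7 at -0.002. None of these values passed. Over all 47 members 0 to 8 changed sign in a setting, and PSMC4, PSMD1, PSME3, PSME4 and PSMG2 were followed in that count only. No member with an absolute change of at least 0.1 changed sign under any setting run. The cause of the lost calls was not tested. Between 115 and 433 reads stood behind PSMB9, and the blocked SE of its change was 0.09, against 0.06 for PSMG1.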
